A study of Arabidopsis thaliana with 6 samples.

Results

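The small RNA of wild-type Arabidopsis thaliana pollen was described from the 3 libraries that carry the wild-type label, out of 6 libraries in the series. The plants are of accession Col. Total RNA was taken from whole sorted pollen grains, and small RNA libraries of nominal 19 to 25 nt inserts were sequenced on an Illumina HiSeq 2500. Wild-type grains were sorted out of samples that also held paps1-3 mutant grains, whose 3 libraries were not used here. A mature pollen grain holds 1 vegetative cell and the sperm cells it carries, and the libraries mix both. A lower count in such a bulk sample does not separate fewer cells of a type from less RNA per cell. The libraries are named by their label numbers 15, 19 and 25. The labels describe 3 RNA isolations, each of wild-type and paps1-3 grains from a shared sample, without saying which libraries belong to which isolation. No label says that the isolations came from separate plants, so the spread between them may be technical.

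Small RNAs of plants fall into a few biogenesis classes. MicroRNAs (miRNAs) are cut from hairpin precursors by DCL1, mostly as 21 nt molecules, and guide Argonaute proteins to matching messenger RNAs. Trans-acting siRNAs come from TAS transcripts that a miRNA cuts first, after which RDR6 and DCL4 make 21 nt products and DCL2 makes 22 nt products. Transposon siRNAs of 24 nt, made by DCL3 with RNA polymerase IV and RDR2, direct DNA methylation, and pollen is known in addition for 21 to 22 nt siRNAs from transposons that are active in the vegetative cell. Fragments of ribosomal and transfer RNA are also sequenced in such libraries.

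Mature miRNAs of leading loci, and of loci described below for their read length, are shown first, for comparison with the read lengths given below. The counts used here hold read lengths but no read sequences. Mature sequences are from the RefSeq annotation of TAIR10.1, written 5′ to 3′ with the seed (bases 2 to 8) in capitals.
miR158a-3p: uCCCAAAUguagacaaagca
miR158b: cCCCAAAUguagacaaagca
miR165a-3p: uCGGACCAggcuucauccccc
miR166a-3p: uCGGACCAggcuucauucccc
miR156a-5p: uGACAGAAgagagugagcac
miR156b-3p: uGCUCACCucucuuucugucagu
miR161.1: uGAAAGUGacuacaucggggu
miR161.2: uCAAUGCAuugaaagugacua
miR403-3p: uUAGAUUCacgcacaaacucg
miR845a: cGGCUCUGauaccaauugaug
miR845b: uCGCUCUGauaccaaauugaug
miR773a: uUUGCUUCcagcuuuugucuc
miR778: uGGCUUGGuuuauguacaccg
The first 2 share the seed CCCAAAU and differ by U1C, with the base of miR158a-3p first and positions counted from 1 at the 5′ end. The next 2 share the seed CGGACCA, which 9 annotated mature sequences carry, and differ by C17U, with the base of miR165a-3p first. miR845a and miR845b have different seeds under this count but hold a common run of 13 bases.

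Every library listed 60936 IDs, and reads were summed per ID over lengths of 18 to 28 nt. Counted reads were 10139424 in library 15, 9757853 in library 19 and 9312167 in library 25, with reads on 45277, 46436 and 47947 IDs. Library 15 stood apart in read length before any class was considered. Reads of 25 to 28 nt made up 31.2% of library 15, against 15.8% of library 19 and 13.4% of library 25, while reads of 18 to 19 nt made up 17.9%, 29.8% and 33.6%. The middle band of 20 to 24 nt was alike, at 50.9%, 54.4% and 53.0%. Values per library, or the mean without library 15, are given for the main results. At these depths the 95% Wilson interval of a class share in a library was at most 0.0641 percentage points wide. Such intervals cover counting error only, and the reads carry no molecular identifiers.

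Fragments of structural RNA made up most reads of the wild-type libraries. Nuclear ribosomal RNA IDs (4 IDs) took 55.4% ± 2.77 of counted reads (53.8% without library 15) and nuclear tRNA IDs (597 IDs) took 12.2% ± 0.867 (SD, n = 3 here and below unless stated). Transposon IDs took 9.32% ± 0.449 and protein-coding IDs 9.27% ± 0.428, so these classes differed by less than the spread between libraries. Mitochondrial IDs followed with 4.94% ± 0.878, miRNA loci with 3.14% ± 0.558, pseudogenes with 2.80% ± 0.272 and chloroplast IDs with 0.893% ± 0.0722. TAS transcripts with an ID of their own took 0.125% ± 0.0644, small nucleolar RNA 0.0501% ± 0.00352 and small nuclear RNA 0.0325% ± 0.00327. A further 1.72% ± 0.268 of reads lay on segments that several genes cover and that carry joined IDs. These include the TAS1C segment, which is therefore not in the TAS class. It had 7836, 17687 and 23037 reads in libraries 15, 19 and 25, against 5971, 12543 and 17467 for the TAS class. With rRNA, tRNA, small nuclear and nucleolar RNA and organelle IDs set aside, transposons held 35.2% ± 1.21, protein-coding genes 35.0% ± 1.61, miRNA loci 11.8% ± 1.46 and pseudogenes 10.6% ± 1.08. Of the pseudogene reads 86.2% lay on AT2G07731, which had nearly the same counts as the mitochondrial ID ATMG00270. Its reads cannot be assigned to the nuclear or the mitochondrial copy, so the pseudogene share may hold organelle reads.

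The mitochondrial share was 4.18% in library 15, 5.90% in library 19 and 4.72% in library 25. Nuclear IDs with no RefSeq match took 0.0151%, 0.0343% and 0.0377%. The miRNA share was 2.55% in library 15, 3.22% in library 19 and 3.66% in library 25, and its mean without library 15 was 3.44%. The TAS share was 0.0589%, 0.129% and 0.188% in the same order, with a mean of 0.158% without library 15. By chromosome prefix, AT2G and AT3G IDs took 32.5% ± 1.79 and 36.1% of reads because the rRNA IDs lie there, and 7.64% and 5.54% without them. Among transposon prefixes, AT3TE held 2.88% and AT5TE 2.73% of all reads, above AT2TE with 1.32%, AT4TE with 1.27% and AT1TE with 1.13%.

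**Figure D1:**
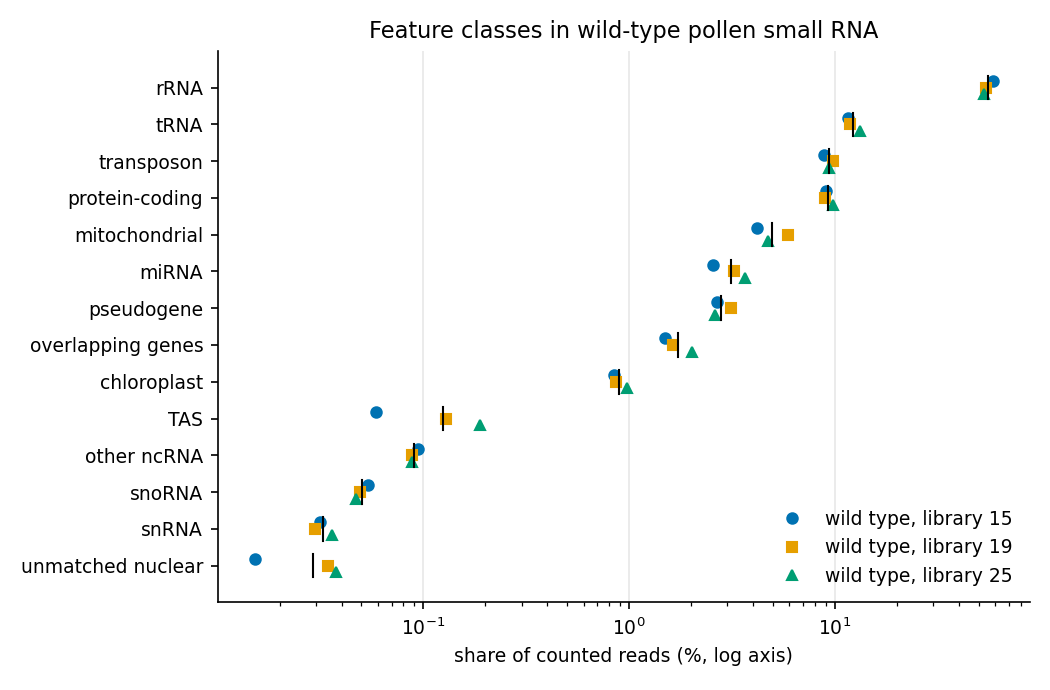
Share of counted reads (percent, log axis) of each feature class in the 3 wild-type libraries, with points for libraries and a black bar for their mean. Nuclear ribosomal RNA lies at 53.3% to 58.5% in all 3, and the TAS class spreads most for its size, between 0.0589% and 0.188%. The TAS class leaves out TAS1C, whose segment carries a joined ID.

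Each class had a read length profile of its own. Reads on miRNA loci were 59.4% ± 5.05 of 21 nt and 27.5% ± 3.35 of 20 nt, with 6.59% ± 0.450 of 22 nt and only 0.0481% ± 0.0201 of 25 to 28 nt. Reads on TAS transcripts were 58.1% ± 5.63 of 21 nt and 30.6% ± 7.93 of 22 nt. Transposon reads had maxima at 24 nt (17.3% ± 1.99) and at 21 nt (15.6% ± 1.36), with 13.6% ± 1.49 at 22 nt and a drop to 3.8% at 25 nt. Their most counted length was 24 nt in libraries 15 and 19 and 21 nt in library 25. Protein-coding reads were most often 18 nt (17.99% ± 2.40) and held 8.42% ± 1.32 of 24 nt.

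Structural and organelle reads had broad profiles. Ribosomal RNA reads declined with length in libraries 19 and 25, with 15.5% and 17.4% at 18 nt, whereas library 15 held 7.90% at 18 nt and had its maximum of 11.01% at 21 nt. Transfer RNA reads were 41.0% ± 16.2 of 18 to 19 nt, with 22.8% in library 15, 46.3% in library 19 and 53.9% in library 25. Mitochondrial reads had one maximum at 21 nt, with 14.9% ± 5.26, and another at 26 nt, with 12.9% ± 4.85. The 26 nt maximum was the higher one in library 15 only, at 18.5% against 9.29% for 21 nt there. Chloroplast reads peaked at 21 nt (16.6% ± 1.89) and 22 nt (14.8% ± 0.739) in all 3 libraries.

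Pairs of classes were compared within libraries at 24 or 22 nt. The 24 nt share was higher in transposons than in protein-coding genes by 9.70, 8.41 and 8.55 percentage points in libraries 15, 19 and 25, a mean of 8.89 ± 0.709. It was higher in transposons than in rRNA by 9.16 ± 0.306 points. The 22 nt share was higher in TAS transcripts than in miRNA loci by 33.3, 21.4 and 17.4 points, a mean of 24.02 ± 8.26, and higher in chloroplast than in mitochondrial IDs by 7.70 ± 0.274 points. All 4 differences had the same sign in 3 of 3 libraries and were larger than their spread. The exact two-sided sign-flip permutation test gave p = 0.25 for each (0.25 after Benjamini-Hochberg adjustment over the 4), the smallest value that 3 libraries allow.

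**Figure D2:**
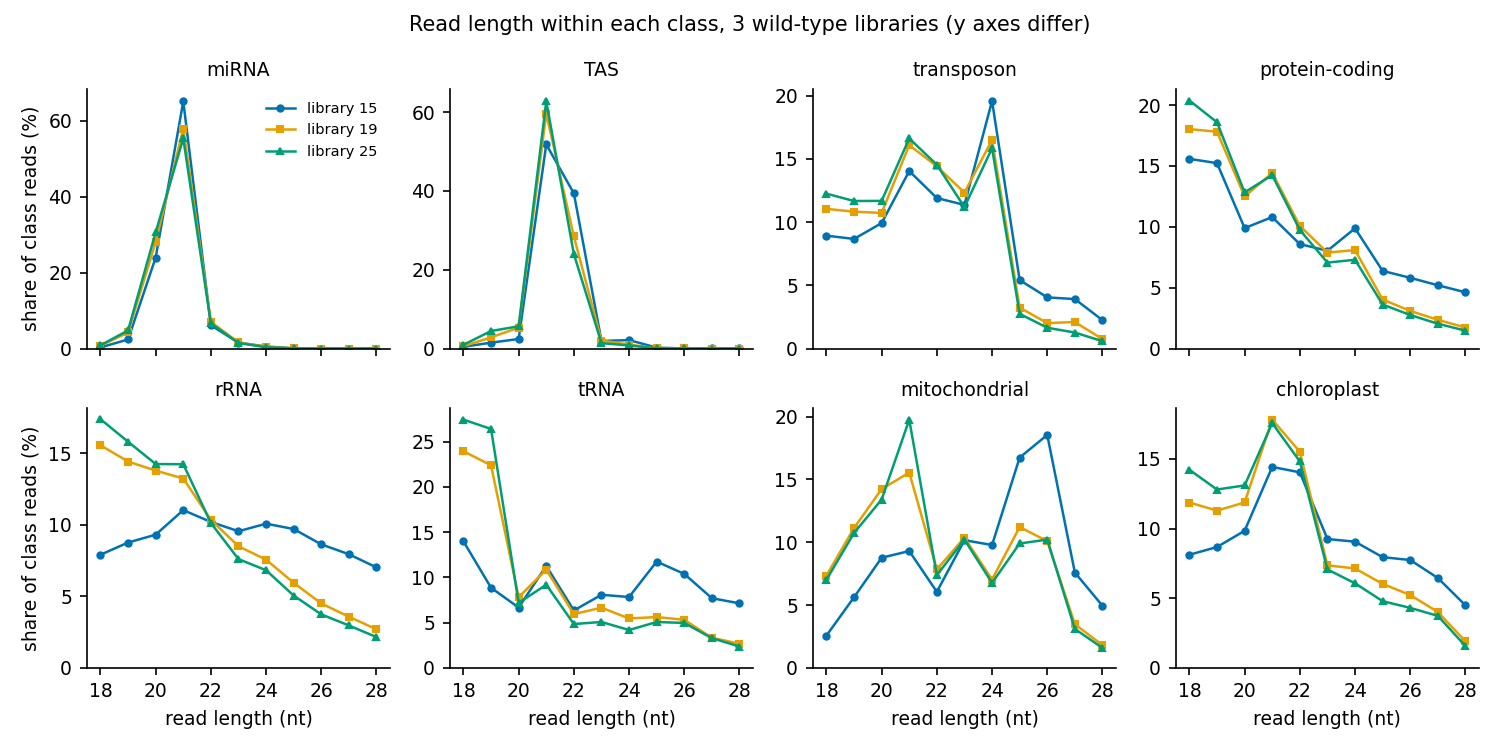
Share of each class's reads (percent, y axes differ between panels) at each read length from 18 to 28 nt, with a line for each wild-type library. miRNA and TAS reads are concentrated at 20 to 22 nt, and transposon reads have maxima at 21 and 24 nt. Library 15 holds a larger share of 25 to 28 nt reads in the rRNA, tRNA, protein-coding, transposon, mitochondrial and chloroplast panels.

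Of 164 miRNA loci with an ID of their own, 155 had reads and 4 held 50% of the miRNA reads. MIR158a had 30663 reads in library 15, 58693 in library 19 and 76570 in library 25, or 5754 ± 2609 CPM (counts scaled to 1e+06 counted reads), and 7119 CPM without library 15. Library 15 was the lowest and library 25 the highest for this locus. MIR158a reads were 69.6% of 20 nt, the length of the annotated miR158a-3p shown above. MIR158b, whose mature sequence differs at position 1, had 28316, 28881 and 29622 reads, which are close in all 3 libraries, and 54.9% of its reads were of 20 nt and 31.4% of 21 nt.

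MIR165a and MIR165b, whose products match the messenger RNAs of HD-ZIP III transcription factors, had 41371, 38642 and 39829 reads and 39529, 36322 and 37468 reads in libraries 15, 19 and 25. Both were level between libraries, and were 97.7% and 98.6% of 21 nt. The 2 loci encode the same mature sequence and together held 7987 ± 309 CPM, or 25.5% of miRNA reads. The related miR166a to miR166g, with 7 loci, summed to 3685 ± 279 CPM (4000, 3586 and 3470 CPM), highest in library 15. The 6 loci from MIR166b to MIR166g had 5603 to 5811 reads each in library 15, 4837 to 4999 in library 19 and 4415 to 4673 in library 25. Their variance over mean was 0.977, 0.600 and 2.19, where 1 is the sampling noise of reads placed at random among identical copies, so the levels of single copies cannot be told apart.

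miR156, which guides the cutting of SPL transcription factor messages, had 36578, 39617 and 37305 reads over 6 loci, or 3891 ± 247 CPM. MIR156a, MIR156c and MIR156f were 68.2% to 69.2% of 20 nt. MIR156b stood apart in this family, with 9832, 10110 and 9386 reads of which 40.5% were of 20 nt, 22.99% of 22 nt and 20.8% of 23 nt. Its annotated 3p arm, shown above, is 23 nt long, and MIR156b was the most counted locus of the class at that length.

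The remaining leading loci were lower in library 15. MIR845a had 6915, 12446 and 14930 reads (65.6% of 21 nt) and MIR845b 3041, 3433 and 3840 reads (82.0% of 22 nt). The miR845 family is known in Arabidopsis pollen for matching the primer-binding sites of LTR retrotransposons. MIR161, which gives 2 overlapping mature miRNAs known to match pentatricopeptide repeat (PPR) messages, had 8318, 11902 and 13091 reads (70.2% of 21 nt). MIR403, known to match AGO2, had 4370, 9129 and 11388 reads (74.0% of 21 nt and 20.1% of 22 nt). The 2 loci of miR168, known to match AGO1, summed to 355, 638 and 556 CPM in libraries 15, 19 and 25. The 3 loci of miR160, known to match ARF10, summed to 97.1, 229 and 228 CPM.

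Among the 89 loci with at least 50 reads over the 3 libraries, the most counted length was 21 nt at 63, 20 nt at 14, 22 nt at 6, 18 nt at 3, 24 nt at 2 and 19 nt at 1. This length was that of an annotated mature miRNA of the locus at 73 and was the same in all 3 libraries at 76. Some loci are given here that were chosen after their values were seen. MIR773a had 1153, 3356 and 3214 reads, of which 96.5% were of 22 nt and 2.18% of the annotated 21 nt. MIR848 had 59, 71 and 58 reads, 79.8% of 24 nt where 22 nt is annotated. MIR159c had 20, 170 and 122 reads, 74.0% of 18 nt where 21 nt is annotated. In contrast, MIR778, with 1094, 2383 and 4638 reads, was 97.2% of its annotated 21 nt. In 76 of the 89 loci library 15 had the lowest CPM and in 8 the highest, and 33 loci stayed within 2-fold over all 3 libraries.

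**Figure D3:**
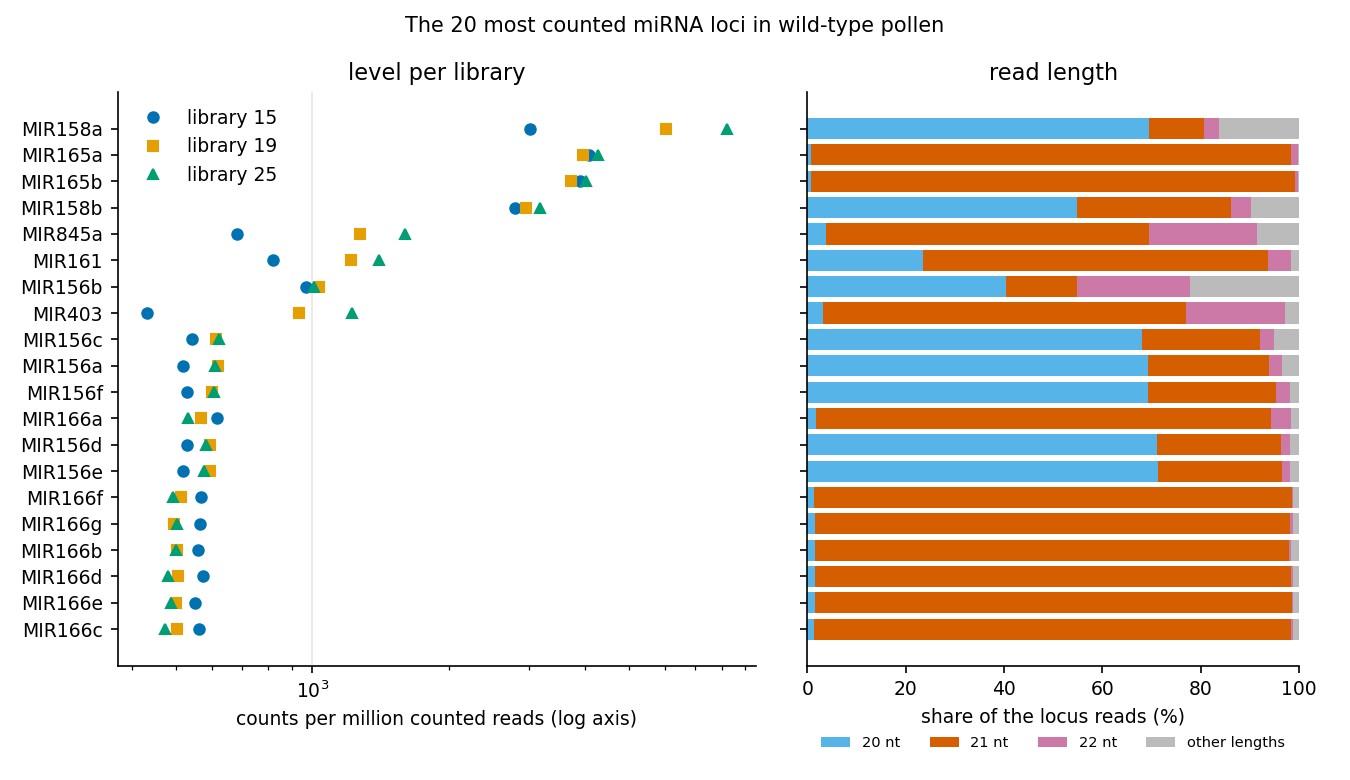
The 20 most counted miRNA loci, with CPM (log axis) in each wild-type library at left and the percentage of the locus's reads of 20, 21, 22 and other lengths at right. MIR165a, MIR165b and MIR158b lie close together in all 3 libraries, whereas MIR158a, MIR845a and MIR403 are lowest in library 15.

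TAS1 and TAS2 transcripts are cut by miR173, and TAS3 transcripts by miR390. The segment of TAS1C, which overlaps the end of AT2G39670 and carries a joined ID, had 7836, 17687 and 23037 reads in libraries 15, 19 and 25. TAS2 had 2775, 6289 and 9426 reads and TAS1B 2162, 3347 and 4212. All 3 were lowest in library 15. Reads of 21 nt made up 60.96% at TAS1C, 58.8% at TAS2 and 66.4% at TAS1B. TAS3 was far less counted, with 38, 230 and 284 reads, of which 49.6% were of 18 to 19 nt and 20.1% of 21 nt, so it did not share the 21 nt profile of TAS1 and TAS2. Of the 7 listed TAS transcripts with an ID of their own, 5 had at least 50 reads.

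Transposon reads were spread over many elements. Of 30245 transposon IDs 23963 had reads, 15176 had reads in all 3 libraries, and 269 IDs held 50% of the class. Reads of 24 nt on transposons were 17306, 16055 and 14878 CPM in libraries 15, 19 and 25, and reads of 21 nt were 12409, 15653 and 15606 CPM. Thus 24 nt reads exceeded 21 nt reads clearly in library 15, by little in library 19 and not in library 25. Reads of 22 nt were 10522, 14024 and 13649 CPM.

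Counted by element rather than by read, 24 nt was much more frequent. Among 5514 transposon IDs with at least 50 reads (23.01% of those with reads), the most counted length was 24 nt in 3714 (67.4%), 22 nt in 793 and 21 nt in 420. The 24 nt IDs held 28.8% ± 3.42 of transposon reads, the 22 nt IDs 25.1% ± 3.03 and the 21 nt IDs 19.5% ± 2.36. A median of 110 reads fell on a 24 nt ID, against 118 on a 22 nt ID and 311 on a 21 nt ID. Within single libraries 72.5%, 54.95% and 49.4% of the 5514 IDs peaked at 24 nt in libraries 15, 19 and 25, and 2149 IDs did so in each of the 3. Without library 15 the share was 57.5%. The share peaking at 24 nt was 68.5% for AT1TE, 73.6% for AT2TE, 58.4% for AT3TE, 74.5% for AT4TE and 66.3% for AT5TE.

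The most counted transposon IDs did not have a 24 nt profile. They were ranked by counts not divided by element length, since the files give no length, and element families are not named in the sources used here. AT5TE43750 had 17424, 22906 and 17233 reads in libraries 15, 19 and 25, 99.7% of them of 18 to 21 nt. AT2TE14975 had 12801, 14368 and 18191 reads with 22 nt most frequent (18.9%), and AT2TE16215 had 7609, 16993 and 11175 reads with 21 nt most frequent (34.6%). At AT2TE00030, with 4908, 9845 and 9351 reads, 61.4% of reads were of 19 nt. AT5TE40480 had 8555, 6536 and 5288 reads and a broad profile. AT2TE14975 was also the most counted transposon ID at 22 nt (298 ± 144 CPM) and 24 nt (191 ± 18.02 CPM), and AT2TE16215 at 21 nt (426 ± 207 CPM).

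Neighbouring IDs AT3TE47275 and AT3TE47280 came next after AT2TE16215 and AT5TE43750 at 21 nt, with 347 ± 172 and 281 ± 138 CPM of that length. AT3TE47275 had 3498, 7037 and 7973 reads in all, 54.0% of 21 nt and 24.2% of 22 nt. Among 1650 transposon IDs with at least 200 reads, 25 had over 50% of their reads at 18 nt, 13 at 19 nt, 6 at 20 nt, 14 at 21 nt, 2 at 22 nt and 14 at 24 nt. AT2TE30415, chosen after its values were seen, was the purest at 22 nt, with 136, 216 and 239 reads and 96.3% of that length. The 14 at 24 nt were led by AT4TE08985 (440, 477 and 515 reads, or 49.2 ± 5.96 CPM) and AT5TE34865 (464, 406 and 389 reads, or 43.1 ± 2.35 CPM).

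Runs of neighbouring transposon IDs were also singled out after their values were seen. The 90 IDs from AT5TE45370 to AT5TE45830 took 14.5%, 10.6% and 9.18% of transposon reads in libraries 15, 19 and 25, and 70 of them had 1000 or more reads over the 3 libraries, between 1015 and 7042. Their reads were broad in length, with 17.8% at 22 nt and 7.69% at 24 nt. The 5 IDs from AT5TE40475 to AT5TE40495 took 2.87% ± 0.677, with 7711 to 20379 reads each. The 67 IDs from AT3TE56680 to AT3TE57010 took 3.71% ± 1.13, and 36 of them had 1000 or more reads, between 1079 and 7375. All 3 runs had their highest share in library 15 and held 10.04% or less of 24 nt reads, below the class mean of 17.3%.

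**Figure D4:**
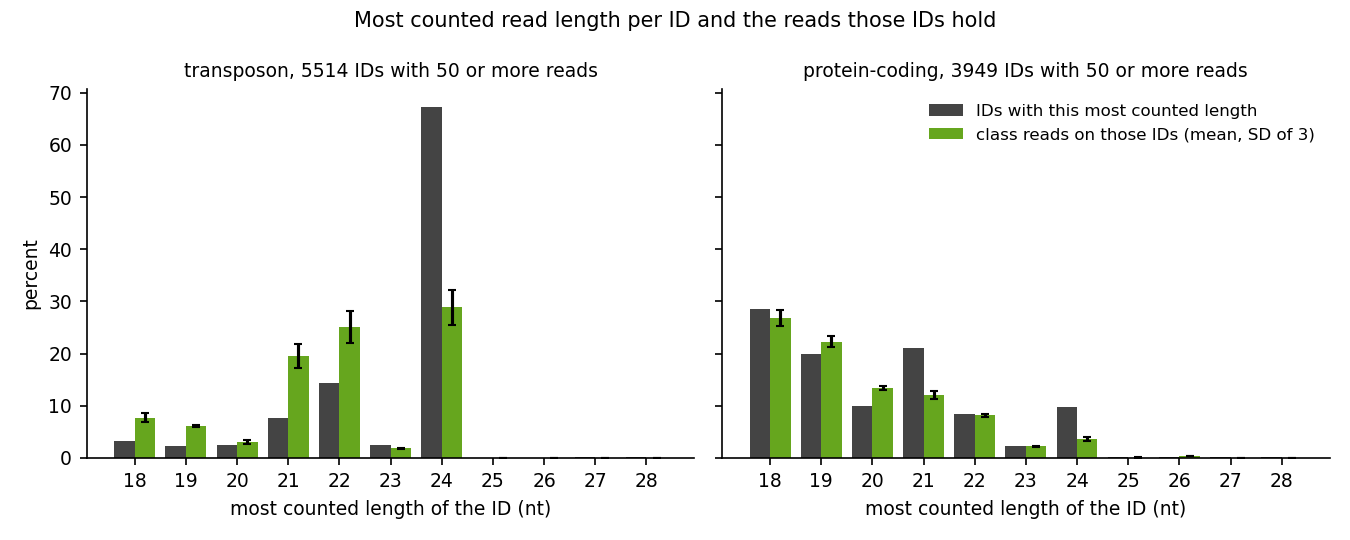
Percentage of transposon and protein-coding IDs with at least 50 reads whose most counted length is the one on the x axis (dark bars), and the percentage of class reads those IDs hold (green bars, mean and SD of 3 wild-type libraries). IDs with 24 nt as their most counted length are 67.4% of transposon IDs and hold 28.8% of transposon reads, whereas protein-coding IDs are most often at 18 nt.

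Reads on protein-coding genes are fragments or small RNAs and do not measure messenger RNA levels. Of 25982 protein-coding IDs 25433 had reads, and 91 held 50% of the class. The most counted was AT2G01021, at chromosome 2:6571-6672 in TAIR10.1, with 83892, 79681 and 67756 reads in libraries 15, 19 and 25. It lies downstream of the rRNA gene AT2G01020 (chromosome 2:5782-5945) on the same strand, and it held 8.55% of protein-coding reads. Of its reads 25.9% were of 18 to 19 nt, against 26.6% of rRNA reads, 35.2% of protein-coding reads and 25.1% at the protein-coding ID sks13. Whether its reads are rRNA fragments was not tested. IMB1, a bromodomain protein gene, had 80927, 76898 and 60643 reads, 99.98% of them of 18 to 21 nt and 46.0% of 19 nt. AT2G19060 (16701, 15572 and 12834 reads) and AT3G06220 (20668, 10782 and 8482 reads) were 70.4% and 81.0% of 18 nt. The pollen gene sks13 had 13509, 11466 and 12554 reads with a flat profile.

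Among 3949 protein-coding IDs with at least 50 reads, the most counted length was 18 nt in 1125, 21 nt in 828, 19 nt in 784, 20 nt in 391, 24 nt in 383 and 22 nt in 331. The count at 24 nt was 199 without library 15, where fewer IDs reach 50 reads, and its share was 7.22%, against 9.70% with all 3 libraries. In all 3 libraries 1010 of the 3949 kept their length. The most counted 24 nt reads, after AT2G01021, were on AT2G08986 (160.5 ± 3.75 CPM of 24 nt, 44.9% of its reads), AT2G01008 (139 ± 17.3 CPM, 38.9%) and AT1G40104 (114 ± 12.6 CPM, 43.5%). The 24 nt reads of these 3 IDs varied little between libraries.

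A smaller set of genes had mostly 21 nt reads. Among 1100 protein-coding IDs with at least 200 reads, 82 had over 50% of reads at 18 nt, 40 at 19 nt, 7 at 20 nt, 33 at 21 nt, 1 at 22 nt and 4 at 24 nt. AT4G19580, a DNAJ-domain gene, came after IMB1 and AT2G01021 among the most counted protein-coding IDs at 21 nt, with 3259, 5092 and 4381 reads and 94.0% of that length. AT3G06435 followed, with 50.8% at 21 nt and 29.9% at 22 nt. Of the 33 genes, 13 had IDs between AT1G62590 and AT1G63630, which RefSeq names as PPR or TPR-like repeat genes. The share of such genes among all 1100 IDs was not counted. PPR messages are known targets of miR161 and of TAS siRNAs. These 13 summed to 133 CPM in library 15, 265 in library 19 and 354 in library 25, and each was lowest in library 15. Their 21 nt share was 51.7% to 67.5% and their 22 nt share 10.3% to 32.5%.

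Other known miRNA targets stood among the 33 and were picked out by name after the values were seen. SPL10, a miR156 target, had 1156, 1342 and 1210 reads, 90.5% of 21 nt, and SPL2 had 303, 323 and 274 reads, 70.6% of 21 nt. ARF10, a miR160 target, had 55, 123 and 116 reads, 80.3% of 21 nt. DCL1, whose message miR162 matches, had 84, 81 and 86 reads, 51.8% of 21 nt. SPL10, SPL2 and DCL1 were level between libraries and ARF10 was lowest in library 15. The only gene over 50% at 22 nt was AT5G48280, with 247, 497 and 780 reads and 88.4% of that length. The 4 genes over 50% at 24 nt were AT3G44780, HAK5, SOT18 and AT1G06148, led by AT3G44780 with 222, 236 and 222 reads and 74.1% of 24 nt.

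Reads on genes of known cell types were set beside the tissue label. Since these reads do not measure messenger RNA levels, they are a weak check of it. Of all protein-coding IDs with reads, 15.5% had at least 50, so 0 or 1 of 7 genes reaching 50 is near what the class as a whole shows. Vegetative-cell genes summed to 1757 ± 155 CPM, and 7 of 8 had at least 50 reads. They were led by VGD1, a pectin methylesterase of the pollen tube, with 11149, 10049 and 11728 reads, by AT5G45880 with 2623, 2170 and 2418, and by PPME1 with 971, 1180 and 1132. Sperm-cell genes summed to 14.5 ± 0.106 CPM, and 3 of 6 with an ID of their own had at least 50 reads, led by GEX1 with 53, 55 and 50 reads and DAZ2 with 35, 41 and 44. The segment that GEX2 shares with another gene had 38, 27 and 38 reads. Tapetum genes, which mark the anther tissue that lines the pollen sac, summed to 2.56 ± 0.303 CPM, none of 7 reached 50 reads and 3 were at 0 in at least 1 library. A count of 0 allows up to 3 reads, or 0.296, 0.307 and 0.322 CPM in libraries 15, 19 and 25. The most counted tapetum genes were DYT1 with 8, 4 and 7 reads, MS1 with 3, 6 and 8 and MEE48 with 5, 5 and 6. Leaf photosynthesis genes summed to 20.96 ± 5.11 CPM over 12 IDs, above the sperm-cell sum, and 4 of them had at least 50 reads, led by CAB1 with 57, 70 and 59 reads, GAPA with 18, 5 and 37 and RBCS3B with 23, 13 and 19.

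Genes of the small RNA pathway themselves carried reads of miRNA-like length in a few cases. AGO2 had 455, 987 and 1113 reads, 30.1% of 20 nt and 27.3% of 21 nt. It was lowest in library 15, as were 76 of the 89 miRNA loci with at least 50 reads, MIR403 among them. AGO1 had 125, 207 and 249 reads, 61.8% of 21 nt. AGO5, the Argonaute known from sperm cells, had 151, 209 and 157 reads, 78.1% of 18 nt. Of the 19 listed genes 10 had at least 50 reads, against 15.5% of all protein-coding IDs with reads, and the list summed to 164 ± 50.1 CPM.

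The ribosomal RNA class held 4 nuclear IDs. Organelle IDs were classed by prefix alone, so any organelle rRNA lies outside this class. RefSeq names AT3G41768 and AT2G01010 as 18S and notes the other 2 as 5.8S. AT3G41768 had 2717187, 2591053 and 2496763 reads, and AT2G01010 2219332, 2012401 and 1912729 reads. The shorter genes AT3G41979 and AT2G01020 had 498506, 350918 and 274599 reads and 497041, 349859 and 275109 reads, which are nearly equal between the 2 genes in each library. All 4 IDs had their most reads in library 15. In CPM the shorter AT3G41979 had 49165, 35963 and 29488 in libraries 15, 19 and 25. AT2G01010 had 218881, 206234 and 205401 CPM and AT3G41768 had 267982, 265535 and 268118 CPM.

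The 597 tRNA IDs were grouped by anticodon, which RefSeq gives for 586 of them in 48 anticodons. The tRNA-Arg(CCT) group of 8 genes had 77547, 213339 and 278761 reads in libraries 15, 19 and 25, or 6.60%, 18.4% and 22.7% of tRNA reads. It was the group with the largest share in libraries 19 and 25, and 96.7% of its reads were of 18 to 19 nt. Its most counted member is shown because 18 and 19 nt fragments make up nearly all of its reads, with the anticodon in capitals.
AT5G65535: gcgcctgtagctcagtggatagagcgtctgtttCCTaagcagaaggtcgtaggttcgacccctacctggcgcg
This gene lies at chromosome 5:26195459-26195531 in TAIR10.1 on the forward strand, and 5 tRNA genes have this exact sequence. It had 12778, 33655 and 43756 reads, 95.2% of them of 18 to 19 nt. AT3G11285 and AT5G05795 followed with 12274, 32892 and 43170 reads and 12278, 33006 and 42996 reads. A segment where the tRNA gene AT2G24380 overlaps AT2G24390 had 6200, 26947 and 43872 reads, 90.2% of 19 nt, and was the most counted joined ID.

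Other tRNA groups had other lengths. tRNA-Gly(GCC) held 9.32% ± 1.18 of tRNA reads with 21 nt most frequent, and AT2G30180 (42816, 42216 and 33363 reads) and AT3G06105 (40212, 39717 and 31144 reads) were its most counted IDs and the most counted of all tRNA IDs. tRNA-Gly(TCC) held 7.60% ± 1.11 and tRNA-Glu(TTC) 6.84% ± 1.89, each with 26 nt most frequent (31.6% and 33.1% of the group). tRNA-Glu(CTC) held 5.10% ± 1.5 with 27 nt most frequent and tRNA-Pro(TGG) 4.95% ± 2.68 with 25 nt most frequent. tRNA-Arg(ACG) held 3.798% ± 2.37, 66.9% of it at 19 nt. The groups named here with 25 to 27 nt most frequent had their highest share in library 15. tRNA-Arg(CCT) and tRNA-Arg(ACG) had their lowest there, in step with the read lengths of the whole libraries. The part of library-wide read length in these differences was not tested.

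Counts on identical tRNA genes bear on how reads with several matching places were handled. Of 92 groups of identical genes with a mean of at least 20 reads, none had equal counts in all copies, 36 had a variance over mean of 0.5 to 3 and 52 were above 3. The 34 identical tRNA-Pro(TGG) copies had 1820 to 2030 reads each in library 15, 608 to 755 in library 19 and 746 to 972 in library 25, with a variance over mean of 1.47, 3.25 and 5.64. A value of 1 is what placing each read at random at 1 copy gives, and 0 is what counting it at every copy gives. Other groups lay far above 1, and the median over the 92 groups was 6.14. The 14 identical tRNA-Gly(GCC) copies had 1760 to 42816 reads each in library 15, with a variance over mean of 24705. The highest of these counts was that of AT2G30180. The source of such gaps between identical copies was not tested. Levels of single copies of rRNA, tRNA, miRNA and transposon families are uncertain where reads match several places.

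Among the remaining nuclear RNA classes a few IDs dominated. The pseudogene AT2G07731, annotated as a copy of NADH dehydrogenase 6, held 86.2% of pseudogene reads with 240931, 261739 and 202296 reads. The mitochondrial ID ATMG00270 had 241005, 261157 and 201973 reads, nearly the same counts, and both had 25 nt as their most counted length. The reads of this pair cannot be assigned to the nuclear or the mitochondrial copy from the counts. The pseudogene AT5G29040 had 3567, 4400 and 3710 reads, 95.8% of them of 18 nt. AT1G15405 held 65.6% of the reads of other non-coding RNA with 6692, 5692 and 4874 reads of many lengths, and AT5G06165 had 786, 641 and 879 reads, 78.4% of 23 nt. The most counted small nuclear RNA was AT1G61275 with 155 CPM and the most counted small nucleolar RNA AT4G02555 with 41.2 CPM, of which 27.8% was of 22 nt.

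Organelle reads were concentrated on few IDs. In the mitochondrial class 2 IDs held 50% of reads. After ATMG00270 (24074 ± 2551 CPM) came ATMG00020 with 82286, 187745 and 139229 reads, 24.5% of 21 nt, and it was lowest in library 15. ATMG01390 had 48694, 59049 and 45091 reads with 26 nt most frequent. ATMG00570 was highest in library 15, with 27584 reads against 12340 and 11173 in libraries 19 and 25, and 29.9% of its reads were of 23 nt. ATMG00160 had 6269, 15251 and 16021 reads, also with 23 nt most frequent. In the chloroplast class the pairs ATCG01210 and ATCG00920 (1236 ± 220 and 1231 ± 206 CPM) and ATCG00950 and ATCG01180 (1151 ± 56.6 and 1134 ± 54.6 CPM) were nearly equal within each pair. ATCG00090 followed with 318 ± 67.3 CPM, 34.6% of it at 21 nt.

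Libraries 19 and 25 agreed better with each other than either did with library 15. Over 15766 IDs with a mean of at least 10 reads, 90.8% were within 2-fold between libraries 19 and 25, against 78.3% between 15 and 19 and 73.0% between 15 and 25. Pearson's r of log2(CPM + 1) across these IDs, which are not independent and share library depth and read length, was 0.974, 0.9502 and 0.948 for the same pairs. The edgeR common biological coefficient of variation was 0.169 for libraries 19 and 25, 0.317 for 15 and 19, 0.325 for 15 and 25 and 0.283 for all 3.

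The gap was wide for miRNA loci. Of 101 of them, 94.1% were within 2-fold between libraries 19 and 25, against 42.6% between 15 and 19 and 40.6% between 15 and 25. For tRNA the shares were 99.7%, 80.1% and 83.4%, for transposons 95.2%, 76.5% and 68.4%, and for protein-coding genes 84.7%, 80.6% and 78.0%. Of the 100 most counted IDs of each library 77 were shared by all 3, as were 83 of the transposon, 89 of the protein-coding and 76 of the tRNA IDs, and 19 of the 20 most counted miRNA loci.

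**Figure D5:**
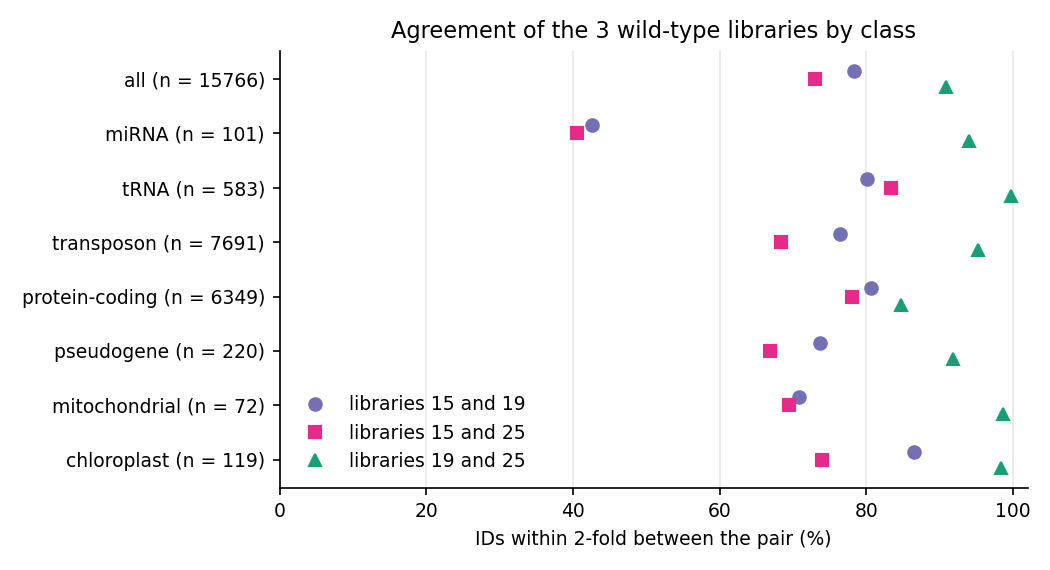
Percentage of IDs within 2-fold between each pair of wild-type libraries, by class, over IDs with a mean of at least 10 reads. Libraries 19 and 25 give the highest percentage in every class shown, and for miRNA loci the pairs with library 15 give 42.6% and 40.6%.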

How the data were processed

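The authors deposited raw read counts for each annotated segment, split by read length into columns of 18 to 28 nt (per the file headers). The submitters' processing notes name Trimmomatic, BWA, SAMtools, bedtools and TAIR10, without versions. Their handling of strand and of reads with several matching places was not given in the sources used here. Counts of the 3 wild-type libraries were summed over 176473 segments to 60936 IDs. IDs were classed by prefix, and nuclear genes by RefSeq biotype (TAIR10.1; 27963 of 28395 IDs matched). Segments covered by several genes kept their joined ID. CPM is a count scaled to 1e+06 counted reads of its library. Shares are means ± SD over the libraries. The rule for named IDs took the 5 most counted of each class, the most counted at each length, the 12 leading miRNA loci, the 5 leading transposon and protein-coding IDs at 21, 22 and 24 nt and the 3 leading members of each gene list. Members and lists were chosen with earlier results of these data known. Scaling factors and the coefficient of variation are from edgeR 4.0.16 (R 4.3.3), tested on simulated data. Other steps used Python 3.11.15, numpy 2.4.6, pandas 2.3.3, scipy 1.17.1 and matplotlib 3.10.9. Alternatives were other read lengths, scalings, minimum counts and the omission of each library.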

Additional observations from a re-analysis of the deposited data

How the results depend on the processing

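Of 240 values recomputed under alternatives for 45 results, 206 moved by less than the spread between libraries (counts by at most 1.5 times) and 34 moved further. Of the 126 values with a library left out, 2 moved further. A mean over the libraries cannot move by its SD when a single library is left out, so most of these could not move further. Of the 114 other values, 32 moved further. With reads of 19 to 25 nt only, the mean shares were 4.26% for miRNA, 10.5% for tRNA and 10.6% for transposons. With joined IDs given to their first feature, protein-coding genes held 10.3%. With IDs weighted equally, transposons held 28.5% at 24 nt and 16.5% at 22 nt, miRNA 15.3% at 20 nt, TAS 46.4% at 21 nt and 18.6% at 22 nt, and chloroplast 24.6% at 21 nt. Without MIR158a, miRNA reads were 69.7% of 21 nt and 18.5% of 20 nt. On a total without rRNA and tRNA, 1451 IDs had a mean of at least 100 CPM, against 641 on the full total (600 to 657 as each library was left out). With no minimum, 60.1%, 56.9% and 64.9% of IDs were within 2-fold for libraries 15 and 19, 15 and 25 and 19 and 25, and with a minimum mean of 100 counts 88.5% and 87.0% for the pairs with library 15. With minima of 200 and 20 counts, 974 and 6181 transposon IDs and 63 and 1009 protein-coding IDs peaked at 24 nt. Leaving out each library in turn gave 57.5% to 69.9% of transposon IDs and 199 to 317 protein-coding IDs peaking at 24 nt, the lowest without library 15 in both. No paired analysis was possible because a single group is described.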
